A study of Mus musculus with 3 samples.

Results

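Triiodothyronine (T3), the active form of thyroid hormone, was added to primary cortical neurons during oxygen deprivation, and the library with T3 was set against a library from neurons deprived of oxygen without added T3. Genes entered when the mean of their normalised read counts (CPM, reads scaled to an effective library size) over the 3 libraries of the study was at least 5 CPM. That left 10365 of 24054 genes, of which 220 were set aside because at least 50% of their 31-base words also occur in transcripts of another gene, and 10145 were compared. The neurons came from the cortex of C57BL/6 mouse embryos at day 17 and were cultured for 7 days. The hypoxia library was held at 0.2% oxygen for 7 hours without T3, the library of hypoxia with T3 at 0.2% oxygen for 7 hours with 5 nM T3, and the control library at 21% oxygen. Each group is 1 library of total RNA, and the labels do not say how many cultures or animals it holds, nor what hormone or serum the medium contained. No difference below could be tested against the spread between cultures, and sizes alone are described.

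T3 enters neurons and glia through membrane transporters and binds nuclear receptors encoded by Thra and Thrb, which sit on DNA beside retinoid X receptors. Without hormone these receptors hold corepressors at their target genes, and hormone binding exchanges these for coactivators, so that many targets are switched on by T3 while others are turned down. Deiodinases set the local supply: Dio2 makes T3 from its precursor and Dio3 inactivates it. In the developing cortex T3 is known for its part in neuronal migration, in outgrowth and in the maturation of synapses and of myelin.

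The deposited values correspond to 17118865 reads for hypoxia, 22533574 for hypoxia with T3 and 18081904 for control, and 1 read stood for 0.0552, 0.0425 and 0.0463 CPM. Where a gene had 0 reads, up to 3 remain possible, which is 0.166, 0.128 and 0.139 CPM. Checked against the labelled cell type, general neuronal markers summed to 10212 CPM in hypoxia, 10302 CPM with T3 and 9479 CPM in control. Astrocyte markers summed to 1042, 1076 and 919 CPM in the same order, and oligodendrocyte lineage markers to 219, 222 and 367 CPM. Microglial markers summed to no more than 12.4 CPM and those of endothelium and pericytes to no more than 3.52 CPM in any library. In bulk RNA such as this, fewer cells of a type and less RNA per cell cannot be told apart.

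Few genes stood far apart between the hypoxic libraries. Hr, Klf9, Cyp26b1, Cldn12, Bcl2l11, Sema7a, Kcnj10 and Mfap3l were at least 2-fold higher with T3 on the scale of CPM + 1, which makes 8 genes or 0.0789% of those compared, and Eif3j1 alone was at least 2-fold lower (0.00986%). When both libraries were scaled to equal sums, 6 genes were past 2-fold on the higher side, and Kcnj10 and Mfap3l, both at a log2 ratio of 0.99, were not among them. Eif3j1 shares words with Eif3j2, which was 3.60-fold higher with T3; both together had a ratio of 1.04 (0.965 to 1.11), and with genes sharing 20% of their words set aside 0 genes were at least 2-fold lower. From 1.3-fold to 2-fold there were 151 higher and 65 lower genes. In all, 159 genes (1.57%) lay 1.3-fold or more higher and 66 (0.651%) 1.3-fold or more lower, and at 1.5-fold these counts were 33 (0.325%) and 9 (0.0887%). The remaining 97.8% of genes lay within 1.3-fold, and the median log2 ratio of all was 0.01 with an SD over genes of 0.14. Just inside and just outside 1.3-fold stood Gnpnat1 and Hmgcll1 on the higher side, both at a log2 ratio of 0.38 as rounded, and Phka2 and Lin7a on the lower side, both at -0.38. At 2-fold the neighbours were Mfap3l at 1.01 and Hivep3 at 0.93, and Eif3j1 at -1.08 and Ubald2 at -0.82.

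**Figure D1:**
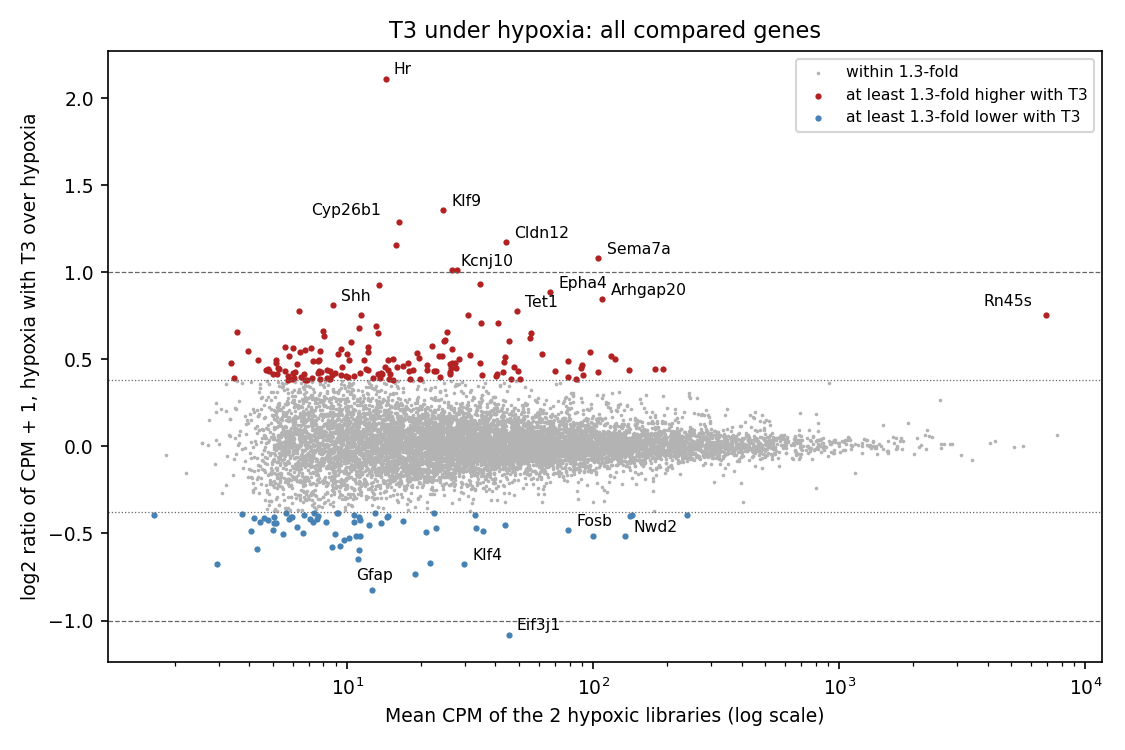
Each point is a compared gene, with its mean CPM over both hypoxic libraries on a log axis and its log2 ratio of CPM + 1, hypoxia with T3 over hypoxia, on the other; dotted and dashed lines mark 1.3-fold and 2-fold. The 159 higher and 66 lower genes lie at the edges of a band that narrows as the mean level grows, and Hr stands highest.

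Counting error was described for each gene from how its reads divided between the hypoxic libraries, with an exact 95% interval (Clopper-Pearson) turned into a ratio of CPM. Reads are not independent molecules, so that these intervals cover counting error only. The interval left out 1 for all 159 of the higher genes and for 65 of the 66 lower ones, and lay wholly beyond 1.3-fold for 41 and 9 of them. Even genes of 5 to 10 CPM had a median of 122 reads in hypoxia. At such depth a gene chosen for being past 1.3-fold nearly always has an interval that leaves out 1, so the first of these counts is no check. Over all compared genes, the interval left out 1 on the higher side for 1253 (12.4%) and on the lower side for 719 (7.09%). Which side held more depended on the scaling: of the genes whose interval left out 1, 63.5% were higher as deposited and 46.9% were higher when both libraries were scaled to equal sums. These intervals were not adjusted for the number of genes. They narrow as reads grow, and the median was 122 reads in hypoxia at 5 to 10 CPM and 3467 at 100 CPM or more. Shares of lists given below were not matched for level, so highly expressed lists are set against genes with wider intervals. Genes past 1.3-fold were mostly of low level, with a median of their mean CPM of 14.8 for the higher and 11.3 for the lower ones. Among genes of 5 to 10 CPM 3.73% were past 1.3-fold on the higher side and 2.07% on the lower, and among genes of at least 100 CPM the shares were 0.374% and 0.187%. Genes at least 300 kb long held 5 higher (1.22%) and 8 lower genes (1.95%) past 1.3-fold among 410, against 1.57% and 0.651% of all compared genes.

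The 3 genes with the highest ratios, Hr, Klf9 and Cyp26b1, are on the list of genes that thyroid hormone is known to induce, as are 5 of the 8 genes at least 2-fold higher. That list was chosen with earlier results of these data known, so this overlap is a description and not independent support. Of 37 genes on that list 21 were compared, with a median log2 ratio of 0.19 against 0.01 for all genes. In this list 8 members (38.1%) were at least 1.3-fold higher and 0 were as far lower, against 1.57% and 0.651% of all compared genes. Above 0 lay 17 of the 21, or 15 with equal sums, against 54.8% of all compared genes, or 46.3% with equal sums. The filter on the mean includes the library with T3, and of these 8 members Hr and Shh passed it only through that library. Over hypoxia and control alone both averaged below 5 CPM, so their place in this count depends on their level with T3. Intervals left out 1 on the higher side for 13 members and on the lower side for 1, or 13 and 2 with equal sums. Over all compared genes these shares were 12.4% and 7.09%, or 9.21% and 10.4% with equal sums.

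Hr (hairless, chr14:70552212-70573548, plus strand, GENCODE M21 on GRCm38) encodes a corepressor that binds thyroid hormone receptors and is a long known target of T3 in the brain. It stood at 4.75 CPM in hypoxia, 23.9 CPM with T3 and 4.03 CPM in control. The library with T3 was therefore far above both others, which lay close together, and the ratio over hypoxia was 5.02 (interval 4.0 to 6.38). Klf9 (chr19:23141226-23168134, plus strand), a zinc finger transcription factor of the Krueppel-like family with a part in neurite outgrowth, gave the same order. It was at 13.4 CPM in hypoxia, 35.8 CPM with T3 and 11.96 CPM in control, a ratio of 2.68 (2.32 to 3.10). Cyp26b1, the enzyme that degrades retinoic acid, was at 9.0, 23.5 and 7.51 CPM, a ratio of 2.61 (2.19 to 3.12). In these 3 genes the hypoxia and control libraries differed by less than either differed from the library with T3.

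**Figure D2:**
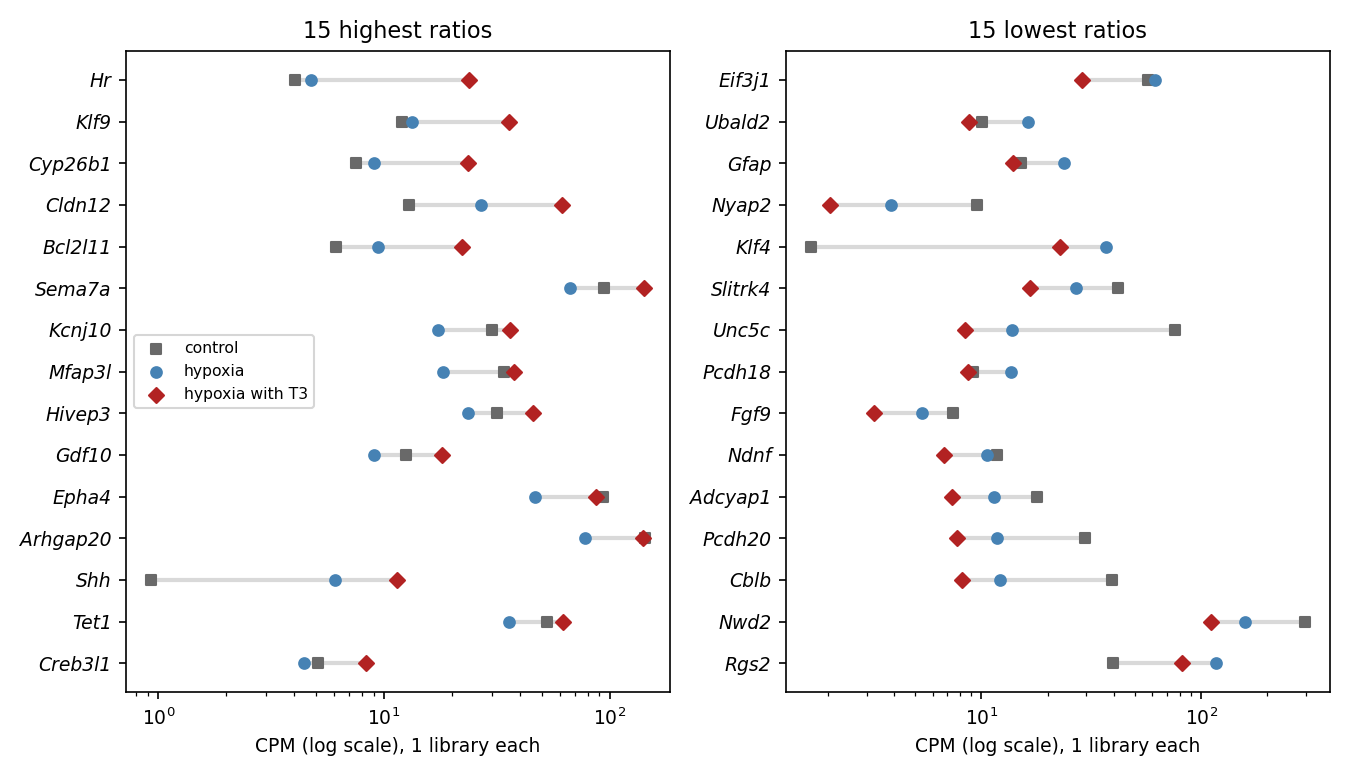
Levels in CPM on a log axis for the 15 genes with the highest and the 15 with the lowest ratios of hypoxia with T3 over hypoxia, 1 library per symbol. For Hr, Klf9 and Cyp26b1 the symbols of control and hypoxia lie close together and that of T3 apart, whereas for Kcnj10, Epha4 and Arhgap20 the symbol of hypoxia is the lowest of the 3.

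In the other members of that list past 1.3-fold the place of the hypoxia library varied, while the library with T3 was the highest in each. Sema7a (chr9:57940112-57962865, plus strand), a membrane-anchored semaphorin that promotes axon growth, was at 66.7 CPM in hypoxia, 142 CPM with T3 and 94.7 CPM in control. Its ratio was 2.14 (2.0 to 2.28), and hypoxia was the lowest library. Kcnj10, the inward rectifier potassium channel Kir4.1 of glia, was likewise lowest in hypoxia, at 17.4 CPM, with 36.1 CPM with T3 and 30.03 CPM in control, a ratio of 2.08 (1.82 to 2.37). Shh, the ligand sonic hedgehog, had hypoxia between the others, with 6.08 CPM there, 11.4 CPM with T3 and 0.927 CPM in control, a ratio of 1.88 (1.5 to 2.36). Abcd2, a peroxisomal transporter of fatty acids, was at 6.08, 9.99 and 6.44 CPM in hypoxia, with T3 and in control, a ratio of 1.64 (1.31 to 2.08). Rasgrp1, an activator of Ras, was at 7.07, 9.91 and 6.49 CPM, a ratio of 1.4 (1.12 to 1.75). In both genes hypoxia and control lay close together.

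Not all genes on that list stood apart. Nrgn, the postsynaptic calmodulin-binding protein neurogranin, was at 90.5 CPM in hypoxia and 91.5 CPM with T3, a ratio of 1.01 (0.948 to 1.08). Camk4, a nuclear calcium-dependent kinase, was at 247 and 264 CPM, a ratio of 1.07 (1.03 to 1.11). Both are textbook targets of T3 in the brain, and both lay well within 1.3-fold here. Below the filter of 5 CPM stood further targets with few reads. Dio3, the inactivating deiodinase, had 1 read in hypoxia and 19 reads with T3, which is 0.0552 and 0.808 CPM beside 0.232 CPM in control. Its ratio was 14.6, with an interval from 2.33 to 608, so that its size was hardly determined at this depth. Dbp, a clock-controlled transcription factor, was at 1.60 CPM in hypoxia, 3.83 CPM with T3 and 1.11 CPM in control, a ratio of 2.39 (1.56 to 3.77). Flywch2 was at 1.55, 3.02 and 1.39 CPM, a ratio of 1.95 (1.24 to 3.14).

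The machinery that carries and reads the hormone was nearly level between the hypoxic libraries. Of 21 compared receptors, transporters, deiodinases and coregulators, 0 were past 1.3-fold either way, against 1.57% higher and 0.651% lower of all compared genes. The median log2 ratio was 0.01, or -0.01 with equal sums. Thra was at 882 CPM in hypoxia and 878 CPM with T3, beside 642 CPM in control, and its ratio of 0.996 had an interval from 0.975 to 1.02. Thrb was at 5.19 and 5.10 CPM, beside 20.8 CPM in control, with a ratio of 0.983 (0.744 to 1.3). Crym, which encodes a cytosolic protein that binds T3, had the lowest ratio of these genes, with 19.6 CPM in hypoxia, 15.3 CPM with T3 and 15.2 CPM in control. The list of genes that the hormone represses has 20 members, and 11 could be compared. Here 0 members were past 1.3-fold as counted on the CPM + 1 scale, and their median log2 ratio was -0.01. Of all compared genes 1.57% were as far higher and 0.651% as far lower. Intervals left out 1 on the lower side for 2 members (18.2%) and on the higher side for 1 (9.09%), against 7.09% and 12.4% of all compared genes. With equal sums these counts were 3 and 1, against 10.4% and 9.21%.

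Promoters were searched because these genes stood higher together. The letters searched were AGGTCA on either strand, the core to which thyroid hormone receptors bind, and the direct repeat of AGGTCA with 4 bases of any kind between, whose matches also hold the shorter motif, in the 250 bases before each RefSeq start (GRCm38.p6). Of 32851 such windows 14.0% held AGGTCA. Among the 15 genes with the highest ratios 12 had an entry, and 1 of their 17 windows held it. Klf9 is shown as the highest gene with an entry and Tet1, which encodes an enzyme that oxidises methylated cytosine, as the gene with the match, whose letters are in capitals. The Klf9 window is chr19:23140976-23141225 on the plus strand, and the Tet1 window is chr10:62887325-62887574 on the minus strand, at a RefSeq start inside the span that GENCODE gives that gene (chr10:62804570-62908996).
Klf9: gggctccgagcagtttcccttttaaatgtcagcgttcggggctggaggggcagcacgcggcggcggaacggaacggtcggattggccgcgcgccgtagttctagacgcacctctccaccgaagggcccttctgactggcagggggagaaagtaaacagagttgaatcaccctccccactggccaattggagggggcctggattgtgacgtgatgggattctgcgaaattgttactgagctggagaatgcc
Tet1: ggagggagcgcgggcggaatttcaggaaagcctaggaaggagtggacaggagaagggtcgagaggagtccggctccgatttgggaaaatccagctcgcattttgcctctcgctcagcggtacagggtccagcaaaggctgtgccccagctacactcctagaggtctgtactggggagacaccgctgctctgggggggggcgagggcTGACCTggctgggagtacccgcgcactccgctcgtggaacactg
The match in Tet1 begins 44 bases before its start and reads as the reverse complement of AGGTCA. Of all 27025 genes with a window 15.8% held the letters in at least 1. They were in 12 of 113 genes past 1.3-fold on the higher side (10.6%) and in 5 of 52 on the lower side (9.62%). The direct repeat was found in 5 of all windows and in 0 of these sets. A match is a description of letters and not of a site, and these windows leave out enhancers.

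Beyond the listed hormone targets, the 15 highest genes included regulators of death, adhesion, guidance and chromatin. Cldn12, a claudin of cell contacts, was at 26.8 CPM in hypoxia, 61.7 CPM with T3 and 12.9 CPM in control, a ratio of 2.30 (2.08 to 2.56). Bcl2l11, the pro-apoptotic protein BIM, was at 9.39, 22.2 and 6.12 CPM, a ratio of 2.36 (1.98 to 2.83). In both the library with T3 was the highest and control the lowest. Bcl2l11 was the only 1 of 16 compared BCL-2 family genes past 1.3-fold (6.25%), against 1.57% of all compared genes on the higher side. The median of that list was 0.05. Creb3l1, a transcription factor anchored in the endoplasmic reticulum, was at 4.42 CPM in hypoxia, 8.29 CPM with T3 and 5.10 CPM in control, a ratio of 1.88 (1.44 to 2.47). Like Hr and Shh, it reached a mean of 5 CPM only through the library with T3.

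In a further group the hypoxia library was the lowest and the library with T3 stood near or above control. Mfap3l was at 18.2 CPM in hypoxia, 37.8 CPM with T3 and 34.1 CPM in control, a ratio of 2.07 (1.82 to 2.36). Gdf10, a secreted factor of the transforming growth factor family, was at 9.0, 18.0 and 12.6 CPM, a ratio of 2.0 (1.67 to 2.41). Hivep3, a zinc finger transcription factor, was at 23.5, 45.8 and 31.8 CPM, a ratio of 1.94 (1.74 to 2.18). Each of these 3 was highest with T3. Epha4, a receptor for ephrins in axon guidance, was at 46.7 CPM in hypoxia, 87.1 CPM with T3 and 93.5 CPM in control, a ratio of 1.86 (1.72 to 2.02). Arhgap20, which encodes a GTPase-activating protein, was at 77.5, 140 and 144 CPM, a ratio of 1.81 (1.70 to 1.93). For these 2 genes control and the library with T3 were nearly level. Because the hypoxia library enters any ratio to control as well, control values are given only side by side.

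**Figure D3:**
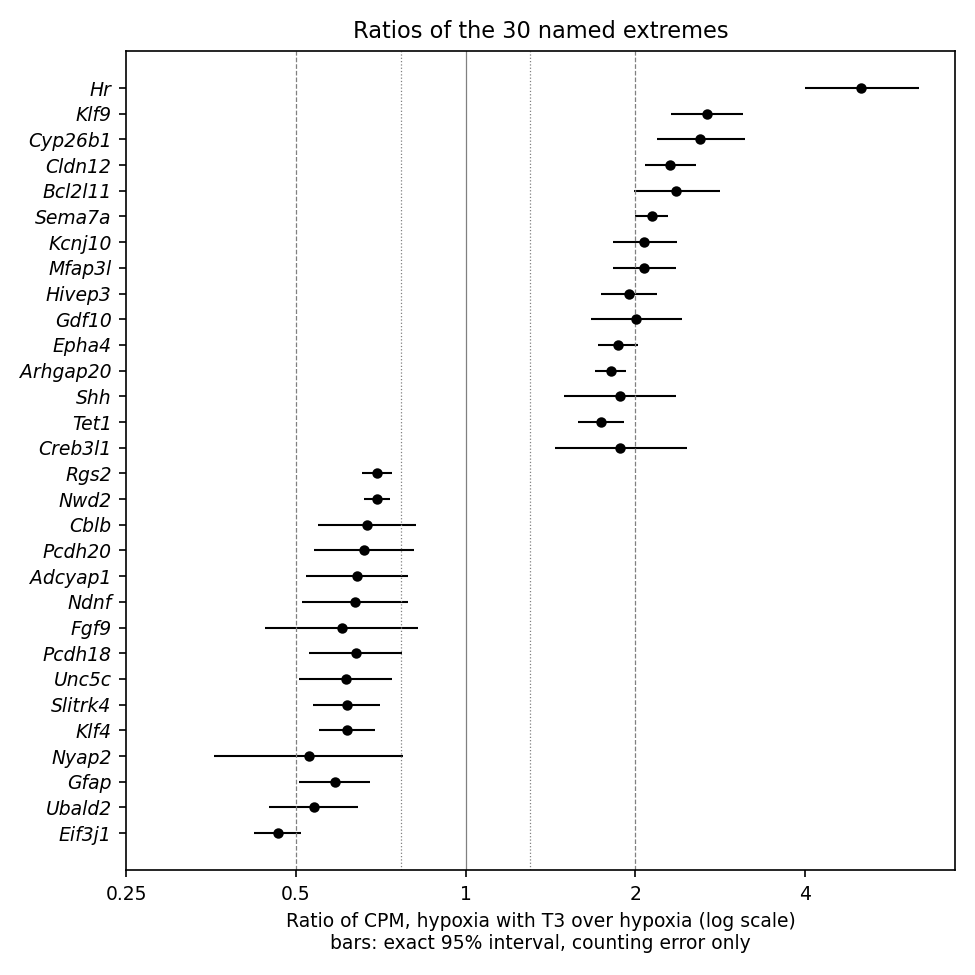
Ratio of CPM, hypoxia with T3 over hypoxia, for the same 30 genes, with exact 95% intervals that cover counting error only; solid, dotted and dashed lines mark 1, 1.3-fold and 2-fold on a log axis. The interval of Hr starts at 4.0, above the whole interval of each other gene shown, and that of Nyap2 is the widest among the lower genes.

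Among the genes of DNA methylation, Tet1 stood apart from its relatives. It was at 35.6 CPM in hypoxia, 61.8 CPM with T3 and 52.9 CPM in control, a ratio of 1.74 (1.58 to 1.91). Tet2, of the same enzyme family, was at 31.5, 40.9 and 38.7 CPM, a ratio of 1.3 (1.17 to 1.44) whose log2 on the CPM + 1 scale, 0.36, fell just short of 1.3-fold. Tet3 was at 63.2 CPM in hypoxia, 71.1 CPM with T3 and 130 CPM in control, a ratio of 1.12 (1.04 to 1.21). Dnmt3a, which places new methyl groups, was at 167, 189 and 209 CPM, a ratio of 1.13 (1.08 to 1.19). Tet1 was the only 1 of 23 compared genes on that list past 1.3-fold (4.35%), against 1.57% of all compared genes on the higher side. The list had a median log2 ratio of 0.06. Chromatin genes of other kinds also lay between 1.3-fold and 2-fold. Kdm6b, which removes methyl groups from lysine of histone H3, was at 101 CPM in hypoxia, 144 CPM with T3 and 103 CPM in control, a ratio of 1.42 (1.34 to 1.5). It was the only 1 of 20 compared histone demethylases past 1.3-fold (5%), against the same 1.57%. Dot1l, a histone methyltransferase, was at 43.1, 68.1 and 55.3 CPM, a ratio of 1.58 (1.45 to 1.72).

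Ion channel and guidance genes past 1.3-fold were a few members of each list. Of 42 compared potassium channels 5 (11.9%) were at least 1.3-fold higher and 1 (2.38%) as far lower, against 1.57% and 0.651% of all compared genes, with a list median of 0.01 that was below 0 with equal sums. Beside Kcnj10 these were Kcnk1 at 9.55 CPM in hypoxia and 14.7 CPM with T3, Kcnj11 at 5.58 and 8.72 CPM, Kcnk9 at 19.2 and 27.9 CPM and Kcns2 at 4.58 and 6.55 CPM. Kcnk1 and Kcnk9 encode background channels that set the resting potential and Kcnj11 the pore of the ATP-sensitive channel. The lower member was Kcnj2, an inward rectifier, at 39.0 CPM in hypoxia, 27.9 CPM with T3 and 17.6 CPM in control, 1.4-fold lower (1.26 to 1.56). Cacna1i, a low-voltage-activated calcium channel, was at 43.5, 67.6 and 58.4 CPM in hypoxia, with T3 and in control, a ratio of 1.55 (1.43 to 1.70). It was the only 1 of 24 sodium and calcium channels past 1.3-fold (4.17%), against 1.57% of all compared genes. Sema7a was likewise the only 1 of 27 semaphorins and plexins (3.70%). Of 29 genes of netrin, Slit and ephrin guidance, Epha4 and Ephb2 (6.90%) were higher and Unc5c (3.45%) was lower, against the same 1.57% and 0.651%. Ephb2, a receptor for ephrin-B ligands, was at 65.4 CPM in hypoxia, 92.4 CPM with T3 and 92.3 CPM in control, a ratio of 1.41 (1.31 to 1.52).

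The Hedgehog list held 8 compared genes, all of them above 0 as deposited and with equal sums, with a median log2 ratio of 0.13. Shh was the only member past 1.3-fold as counted. Cdon, a coreceptor for the ligand, was at 12.2 CPM in hypoxia, 16.0 CPM with T3 and 30.5 CPM in control, a ratio of 1.31 (1.11 to 1.55). Ptch1, the receptor and a target of the pathway, was at 6.41, 7.02 and 17.9 CPM. Of 14 clock genes 2 (14.3%) were at least 1.3-fold higher, Arntl and Ciart, and 1 (7.14%) was at least 1.3-fold lower, Rorb. The shares of all compared genes were 1.57% and 0.651%. Arntl, the partner of Clock, was at 9.67 CPM in hypoxia, 14.5 CPM with T3 and 23.1 CPM in control, a ratio of 1.5 (1.25 to 1.81). Rorb, a nuclear receptor of upper cortical layers, was at 24.7, 17.3 and 58.8 CPM, 1.43-fold lower (1.25 to 1.64).

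On the lower side the 15 lowest genes held transcription and signalling factors, adhesion genes and a glial filament. Klf4, a Krueppel-like transcription factor, was at 36.8 CPM in hypoxia, 22.7 CPM with T3 and 1.67 CPM in control, 1.62-fold lower with T3 (1.45 to 1.82). Rgs2, a regulator of G protein signalling, was at 117, 81.6 and 39.7 CPM, 1.44-fold lower (1.35 to 1.53). For both, the library with T3 lay between control and hypoxia. Gfap, the intermediate filament of astrocytes, was at 23.7 CPM in hypoxia, 13.9 CPM with T3 and 15.2 CPM in control, 1.71-fold lower (1.48 to 1.98). It was the only 1 of 11 compared astrocyte markers past 1.3-fold (9.09%), against 0.651% of all compared genes on the lower side. The summed astrocyte markers stood at 1042 CPM in hypoxia and 1076 CPM with T3. Of 13 Krueppel-like factors, Klf9 and Klf10 (15.4%) were past 1.3-fold on the higher side and Klf4 and Klf6 (15.4%) on the lower. Of all compared genes 1.57% and 0.651% were. Klf10 was at 30.2 CPM in hypoxia, 40.4 CPM with T3 and 9.87 CPM in control, and Klf6 at 161, 121 and 199 CPM.

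Several lower genes were also lower in hypoxia than in control, so that the library with T3 was the lowest of the 3. Unc5c, a netrin receptor, was at 13.8 CPM in hypoxia, 8.42 CPM with T3 and 75.9 CPM in control, 1.63-fold lower with T3 (1.35 to 1.98). Slitrk4, a synaptic adhesion protein, was at 27.0, 16.6 and 42.0 CPM, 1.63-fold lower (1.42 to 1.86). Adcyap1, which encodes the neuropeptide PACAP, was at 11.4, 7.31 and 17.8 CPM, 1.56-fold lower (1.26 to 1.92). The same order held for Pcdh20, a protocadherin, at 11.7, 7.74 and 29.7 CPM. It held for Cblb, a ubiquitin ligase, at 12.2, 8.12 and 39.4 CPM, for Fgf9, a growth factor, at 5.36, 3.23 and 7.42 CPM, and for Nwd2 at 159, 111 and 297 CPM. Ndnf, a secreted neuronal factor, was at 10.6, 6.76 and 11.7 CPM. Nyap2 had 70 reads in hypoxia and 48 with T3, at 3.87 and 2.04 CPM beside 9.50 CPM in control, and its 1.89-fold lower value had an interval from 1.29 to 2.79. In Pcdh18, another protocadherin, hypoxia was the highest library, at 13.6, 8.67 and 9.18 CPM.

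The list of leucine-rich synaptic adhesion genes, which line up pre- and postsynaptic membranes, lay mostly below 0. Of 22 compared members 16 were below 0, or 18 with equal sums, and the median log2 ratio was -0.14. Of all compared genes 54.8% lay above 0, or 46.3% with equal sums. Slitrk4 and Lrrc4c were the 2 past 1.3-fold (9.09%), both lower, against 0.651% of all compared genes on that side. Lrrc4c was at 41.9 CPM in hypoxia, 29.6 CPM with T3 and 95.8 CPM in control, 1.42-fold lower (1.28 to 1.57). The interval left out 1 on the lower side for 9 members (40.9%), or 11 with equal sums, against 7.09% of all genes as deposited and 10.4% with equal sums, and on the higher side for 2.

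Immediate early genes, which neurons switch on within minutes of activity or stress, had the lowest median of all 28 lists at -0.16. Of 30 compared members 25 lay below 0, or 26 with equal sums, while 54.8% of all compared genes lay above 0, or 46.3% with equal sums. The interval left out 1 on the lower side for 21 (70%), or 23 with equal sums, and on the higher side for 2. Of all compared genes 7.09% were called lower in that way, or 10.4% with equal sums, without matching for level. Single differences were small, and 2 members (6.67%) were past 1.3-fold, both lower, against 0.651% of all compared genes on that side. Fosb, which pairs with Jun proteins to bind DNA, was at 91.9 CPM in hypoxia, 65.7 CPM with T3 and 2.13 CPM in control, 1.4-fold lower (1.31 to 1.5). Nr4a2, an orphan nuclear receptor, was at 163, 124 and 49.9 CPM, 1.32-fold lower (1.25 to 1.39). Fos, the best known of the group, was at 392 CPM in hypoxia, 355 CPM with T3 and 15.6 CPM in control, 1.11-fold lower (1.07 to 1.14). Other members short of 1.3-fold were Nr4a1 at 199 CPM in hypoxia, 154 CPM with T3 and 17.3 CPM in control, Npas4 at 68.9, 54.9 and 13.4 CPM and Junb at 190, 158 and 7.32 CPM. The library with T3 thus remained far above control in Fosb, Fos and Junb. Bdnf, the neurotrophin released with activity, was at 18.9, 15.8 and 17.2 CPM, 1.19-fold lower (1.03 to 1.39). Atf3, a stress-induced factor, went the other way with 13.9 CPM in hypoxia, 18.0 CPM with T3 and 0.602 CPM in control.

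**Figure D4:**
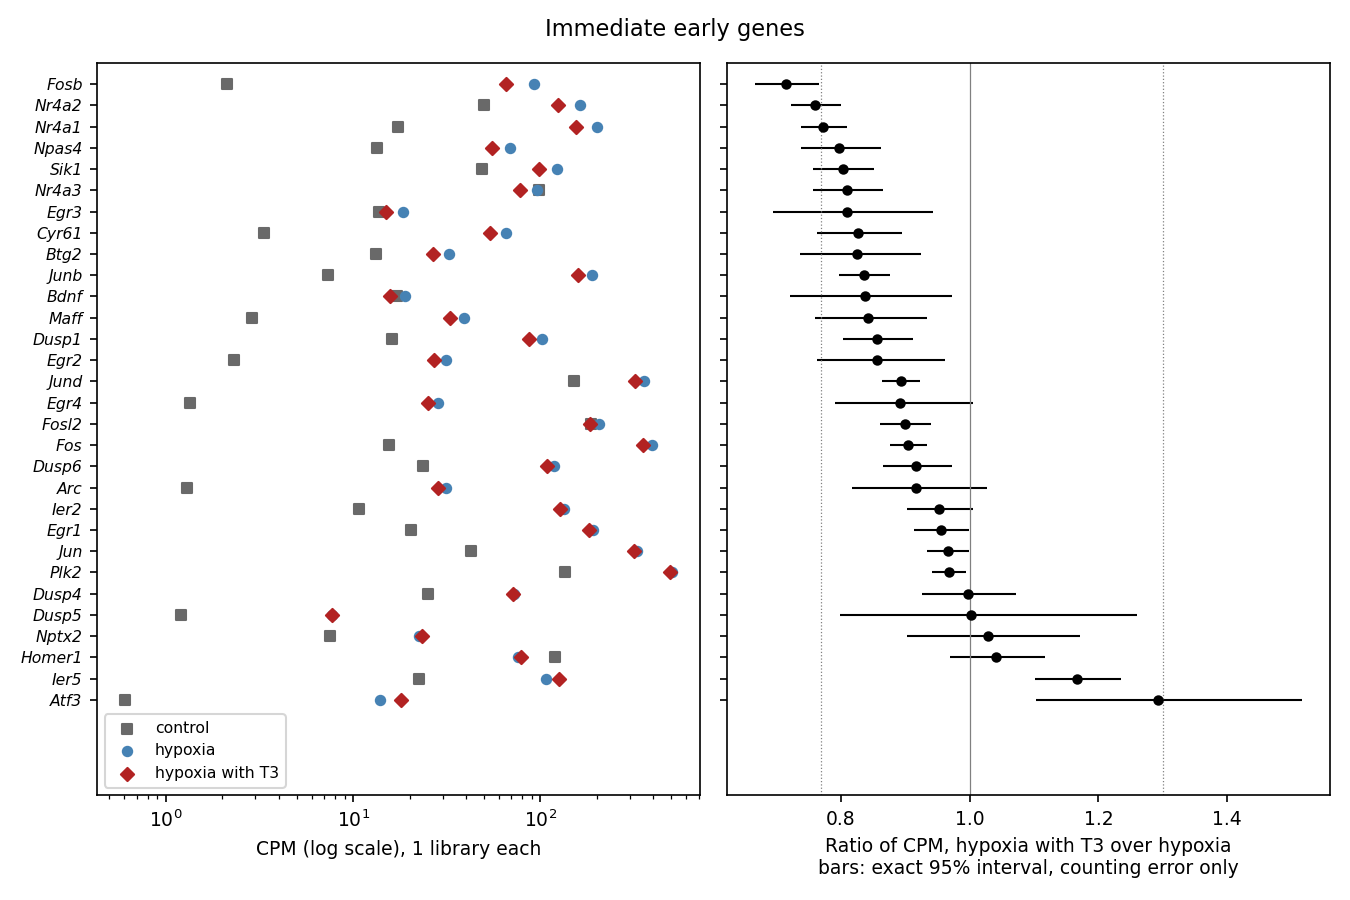
The 30 compared immediate early genes, with CPM in each of the 3 libraries on a log axis at the left and the ratio of hypoxia with T3 over hypoxia with its exact 95% counting interval at the right. Ratios run from Fosb as the lowest to Atf3 as the highest, and 25 of the 30 lie below 1.

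Genes answering to low oxygen itself differed by small amounts. Of 38 compared targets of the hypoxia-inducible factor 1 (2.63%) was at least 1.3-fold higher and 0 were as far lower, against 1.57% and 0.651% of all compared genes. Their median log2 ratio was 0.05. The interval left out 1 on the higher side for 14 of them (36.8%) and on the lower side for 3, against 12.4% and 7.09% of all genes, or for 11 and 3 with equal sums, against 9.21% and 10.4%. Vegfa, the angiogenic growth factor, was at 147 CPM in hypoxia, 155 CPM with T3 and 47.0 CPM in control, a ratio of 1.05 (1.0 to 1.11). The member past 1.3-fold was Pfkfb4, which sets the level of an activator of glycolysis, at 13.3, 18.6 and 17.7 CPM, a ratio of 1.4 (1.19 to 1.65). Genes of nuclear oxidative phosphorylation (53 compared), heat shock (11) and cytosolic ribosomal proteins (51) had 0 members past 1.3-fold. Of all compared genes 1.57% were as far higher and 0.651% as far lower, and of those of at least 100 CPM 0.374% and 0.187%. Their list medians were 0.01, 0.03 and -0.02, and the first of these was below 0 with equal sums. For ribosomal proteins the interval left out 1 on the lower side for 13 members (25.5%), against 7.09% of all genes, or for 19 with equal sums, against 10.4%. On the higher side it did so for 1, or 0 with equal sums. The listed ribosomal protein genes summed to 15054 CPM in hypoxia, and these shares were not matched for level.

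Genes of cholesterol and fatty acid metabolism were slightly higher across the list. Of 34 compared members 32 (94.1%) lay above 0, or 29 with equal sums, against 54.8% of all compared genes, or 46.3% with equal sums. The median log2 ratio was 0.08, and 0 members were past 1.3-fold, against 1.57% higher and 0.651% lower of all compared genes. Intervals left out 1 on the higher side for 19 (55.9%), or 17 with equal sums, against 12.4% of all genes as deposited and 9.21% with equal sums, and on the lower side for 0. The listed genes summed to 12197 CPM in hypoxia, and these shares were not matched for level. Scd2, a desaturase of fatty acids, was at 2326 CPM in hypoxia, 2795 CPM with T3 and 2199 CPM in control. Dhcr7, which makes cholesterol in the last step of its synthesis, was at 123, 143 and 131 CPM.

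Single members of other lists were past 1.3-fold, beside 1.57% of all compared genes on the higher side and 0.651% on the lower. Of 28 cell cycle genes Bub1, a kinase of the spindle checkpoint, was the only member past 1.3-fold (3.57%, higher), at 6.08 CPM in hypoxia, 8.29 CPM with T3 and 7.60 CPM in control. The list median was 0.09. The interval left out 1 on the higher side for 8 of these (28.6%) and on the lower side for 2, against 12.4% and 7.09% of all genes, or for 7 and 2 with equal sums, against 9.21% and 10.4%. Of 29 genes of the integrated stress and unfolded protein responses Chac1, an enzyme that breaks down glutathione, was the only member past 1.3-fold (3.45%, lower), at 6.08 CPM in hypoxia, 4.21 CPM with T3 and 7.51 CPM in control. The list median was -0.04. The interval left out 1 on the lower side for 7 of these (24.1%) and on the higher side for 4, against 7.09% and 12.4% of all genes, or for 11 and 3 with equal sums, against 10.4% and 9.21%. Of 31 glutamate and GABA-A receptor genes Grm4, a metabotropic glutamate receptor, alone was past 1.3-fold (3.23%), 1.39-fold lower, with 8.23 CPM in hypoxia and 5.91 CPM with T3.

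**Figure D5:**
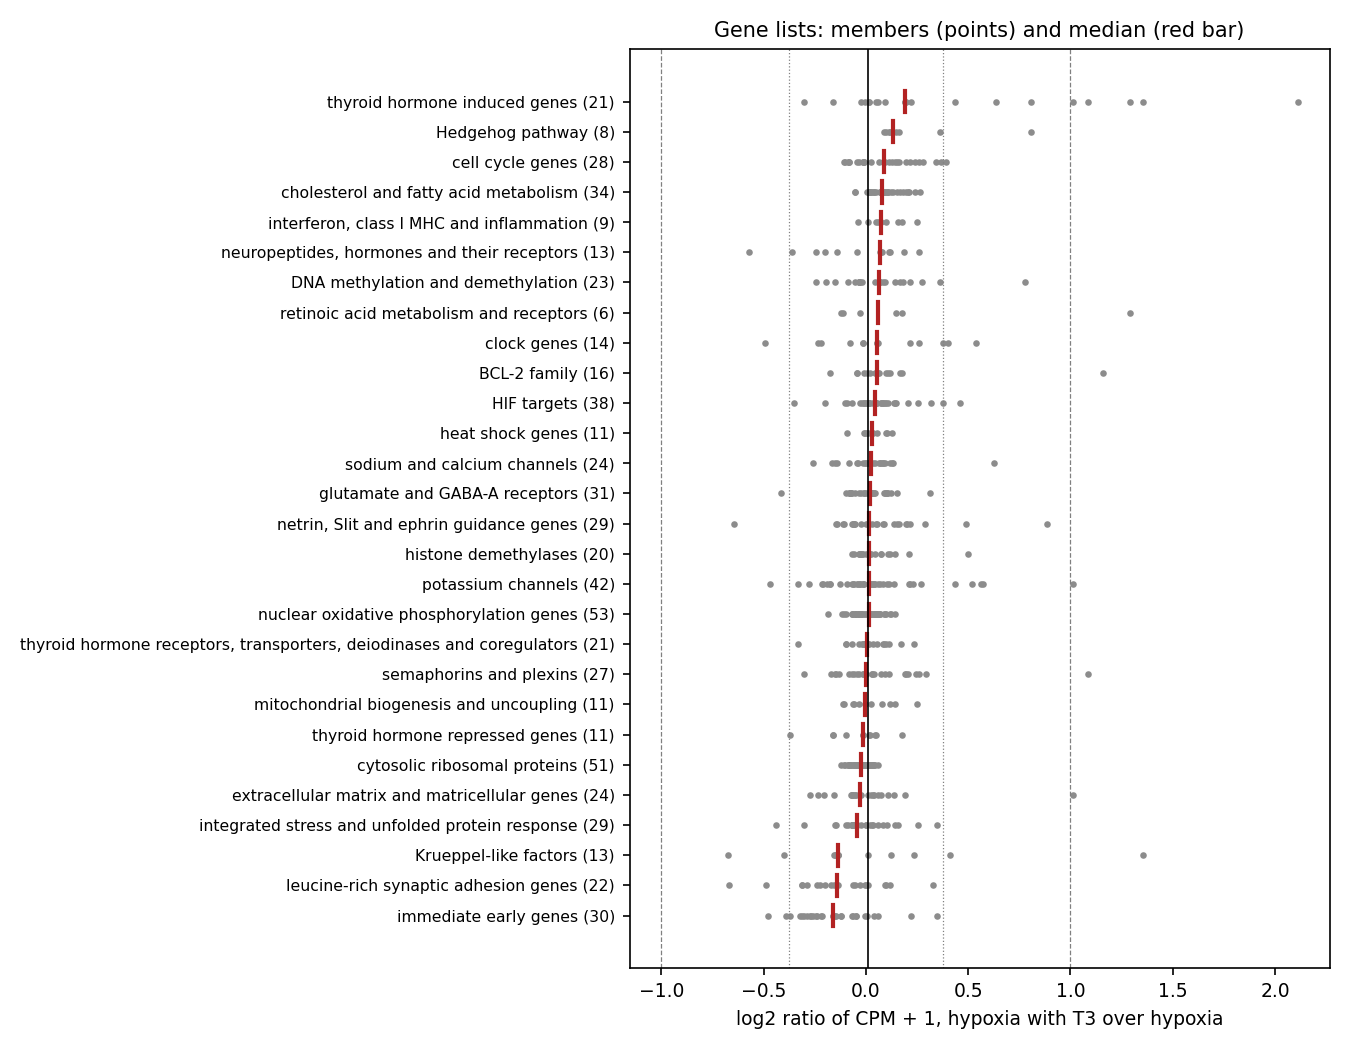
Each point is a compared member of a gene list on the scale of log2 ratio of CPM + 1, hypoxia with T3 over hypoxia, with the list median as a red bar, the number compared in brackets, the median of all genes as a solid line and 1.3-fold and 2-fold as dotted and dashed lines. The median is highest for genes induced by thyroid hormone (0.19) and lowest for immediate early genes (-0.16), and every point beyond 2-fold lies on the higher side.

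Most genes past 1.3-fold belonged to no list: 38 of the 225 (16.9%) were on at least 1, against 692 of all 10145 compared genes (6.82%). The lists were chosen with earlier results of these data known. Among the rest from 1.3-fold to 2-fold, chosen for naming after their values were seen, Sorl1, a sorting receptor for the amyloid precursor protein, was at 8.17 CPM in hypoxia, 14.5 CPM with T3 and 17.8 CPM in control. Nrarp, a feedback inhibitor of Notch, was at 9.78, 16.4 and 10.4 CPM. Emx1, a transcription factor of cortical excitatory neurons, was at 21.4, 32.0 and 18.9 CPM, and Itpr1, a calcium channel of the endoplasmic reticulum, at 50.5, 73.4 and 92.6 CPM. The library with T3 was the highest of the 3 for Nrarp and Emx1, and control was the highest for Sorl1 and Itpr1. Rn45s, the precursor of ribosomal RNA, was at 5119 CPM in hypoxia, 8649 CPM with T3 and 2598 CPM in control, and took 0.541%, 0.903% and 0.310% of reads. It could not be matched to an annotated gene, so that its sharing of words with other genes is not known. With Rn45s and ribosomal protein genes left out and the rest scaled to equal sums, an alternative chosen after seeing the data, 143 genes were past 1.3-fold on the higher side and 73 on the lower.

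Genes set aside as copies held the widest apparent differences of all. Gm5643 had 2 reads in hypoxia and 1461 with T3, but 81.9% of its words occur in other genes, and its sum with Hnrnpa1 was 453 CPM in hypoxia and 425 CPM with T3. Amd1 was at 37.4 CPM in hypoxia and 0.0850 CPM with T3, while its sum with Amd2 had a ratio of 1.01. Snurf, annotated on the same locus as Snrpn, was at 9.0 and 33.8 CPM, and both together at 480 and 470 CPM. In these pairs the sums lay within 1.3-fold. Eif3j1, a subunit of a translation initiation factor and the lowest of the compared genes, was at 61.7 CPM in hypoxia, 28.7 CPM with T3 and 57.3 CPM in control, 2.15-fold lower (1.96 to 2.37). It shares 38.4% of its words with other genes, less than the limit of 50%. Its copy Eif3j2, which was set aside, was at 13.8 and 49.5 CPM, and both together were at 75.5 and 78.2 CPM, a ratio of 1.04 (0.965 to 1.11). Ubald2, the next lowest at 16.3 CPM in hypoxia, 8.80 CPM with T3 and 10.1 CPM in control, shares 28.7% of its words with another gene.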

How the data were processed

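The 3 total RNA libraries (stranded KAPA kit) were placed in groups by their treatment labels, with 1 library per group. The authors deposited a table of CPM with TMM scaling, per its file name. Per the submitters' processing notes, the tools were RSEM 1.2.15, Bowtie2 2.1.0 and bcl2fastq 2.17 and the build mm10, with no roles given. The labels' other tables, which compare hypoxic libraries with control, were not used here. Dividing the deposited CPM by the worth of 1 read gave whole numbers, within 0.01, for 100% of values, so that whole reads were recovered. The members, lists and comparisons were chosen with earlier results of these data known.

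Log2 ratios of CPM + 1 were taken where the mean reached 5 CPM, and on this scale the change of low genes is understated. Printed ratios are of CPM without the added 1, and their exact 95% Clopper-Pearson intervals cover counting error only. Genes past 1.3-fold, 1.5-fold or 2-fold were counted on the CPM + 1 scale. No test across replicates exists. The annotation was GENCODE M21 on GRCm38, the assembly of mm10, in which 9934 genes were found by symbol and 381 by synonym, and 50 were not. Copies had at least 50% of 31-base words in transcripts of another gene. In addition to 28 gene lists, 10 lists of cell type markers were used, and some genes are on several. Named were the 15 highest and 15 lowest genes without predicted models, up to 4 members per list past 1.3-fold, and Hr, Klf9, Dio3, Thra, Thrb, Sema7a, Kcnj10, Shh, Dbp, Cyp26b1, Nrgn, Camk4, Fos, Vegfa, Dnmt3a, Tet3, Bdnf and Gfap. Other genes were chosen after their values were seen. Some genes are not reported here. As an alternative, edgeR's exact test was run on the recovered reads with the dispersion set to 0, which compares the libraries and not the conditions. Other alternatives changed the pseudocount, filter, scaling and copy rule. The procedure was tested on simulated data. Python 3.11.15 (numpy 2.4.6, pandas 2.3.3, scipy 1.17.1, matplotlib 3.10.9) and R 4.3.3 (edgeR 4.0.16) were used.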

Additional observations from a re-analysis of the deposited data

How the results depend on the processing

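The counts of genes past 1.3-fold moved mainly with the filter and the pseudocount. With a mean of at least 1 CPM they were 330 higher and 198 lower, with at least 10 CPM 105 and 36, without a filter 481 and 301, and with 5 CPM added 73 and 24. Past 2-fold, 5 CPM added left 5 higher and 0 lower. The 2-fold lower count was 2 with a mean of at least 1 CPM, 4 without a filter, 3 with copies kept and 0 with copies set aside at 20% of words. The exact test of edgeR with dispersion 0 called 805 genes (560 higher, 245 lower) after Benjamini-Hochberg adjustment, against 1972 by the counting interval, and 175 of the 225 genes past 1.3-fold were among them. The counting intervals were not adjusted for the number of genes, so the counts by test and by interval rest on unlike thresholds. Equal sums over all genes shifted the median of all ratios by -0.019 on the log2 scale and gave 138 higher and 78 lower genes past 1.3-fold. Past 2-fold, 6 genes were higher with equal sums, with median-of-ratios size factors, and without Rn45s and ribosomal protein genes. With equal sums 7 of the 34 lists with at least 3 compared members changed the sign of their median. With 5 CPM added the log2 ratios were 1.57 for Hr, 1.15 for Klf9, 1.02 for Cyp26b1 and 0.42 for Dbp. Leaving out ribosomal genes and setting aside copies only at separate loci were chosen after seeing the data. No paired analysis was possible because each group has 1 library, and for the same reason none could be left out. Depth limits the genes near the filter, as in Nyap2.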
